A study of Mus musculus with 12 samples.

Results

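Nnt and 9 genes of mitochondrial defence against peroxide and superoxide (Sod2, Prdx3, Prdx5, Txn2, Txnrd2, Gpx1, Gsr, Glrx2 and Idh2) were followed in the embryonic mouse heart. The genes were chosen by name, and every probe set whose only gene symbol in the platform annotation was one of theirs was taken. Of the 10 genes 9 had such a probe set, 23 probe sets in all out of 45101 on the array, and they were 9 of the 18194 genes measured. Prdx5 was not analysed here. For each gene the brightest probe set, by its mean over the 12 arrays, stands for the gene, and the others are given beside it.

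The samples were left and right ventricles (LV and RV) dissected at 14.5 days post coitum. Embryos were wild-type CD1 (WT) or Nos3-/-, on strain B6.129P2-Nos3tm1unc/J (KO), and the latter lack a working copy of endothelial nitric oxide synthase. Each of the 4 groups had 3 Affymetrix arrays, and each array carried RNA pooled from 15 to 30 embryos, so that the spread between arrays is the spread between pools. WT and KO differ in strain as well as in the Nos3 allele, and the effects of the 2 cannot be told apart. A deletion within Nnt is known from the C57BL/6J substrain, and the labels do not say whether the KO strain carries it. Values are log2 expression after RMA, where a difference of 1 is a 2-fold change, and a gene was called at an adjusted p under 0.05 in limma. The median of all values on the arrays was 5.67. Nos3 itself was called lower in KO in both ventricles, by -0.41 in the left (adjusted p = 0.0376) and -0.66 in the right ventricle (adjusted p = 0.00983).

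Mitochondria release superoxide as a by-product of respiration. The manganese enzyme Sod2 turns it into hydrogen peroxide, which peroxiredoxins (Prdx3 and Prdx5) and glutathione peroxidase (Gpx1) reduce to water. These enzymes are recharged by the mitochondrial thioredoxin Txn2 with its reductase Txnrd2, and by glutathione, which Gsr keeps reduced and which Glrx2 uses on oxidised proteins. The reducing power comes from NADPH, which is made in the matrix by the transhydrogenase Nnt, from the proton gradient of the inner membrane, and by the isocitrate dehydrogenase Idh2. Heart muscle is rich in mitochondria and depends on this chain.

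The promoter letters of 3 members are shown because Prdx3 and Gpx1 were both called lower in KO left ventricles and Txn2 holds the single motif match among the measured members. RefSeq promoter windows on GRCm38.p6 were found for 8 of the 10 genes, and the 250 bases before the start were searched on both strands. The motifs were the core of the antioxidant response element (TGACNNNGC), which binds Nrf2, the core bound by nuclear respiratory factor 1 and the core bound by GA-binding protein (CCGGAAG), a pair of regulators of mitochondrial genes, and no 2 of the sites found overlapped. Over 32851 windows of the same length, 10.2%, 3.74% and 6.91% held them. Among the members, the GA-binding protein core was found once in Prdx5 and once in Txn2, 119 bases before the start and on the opposite strand, and the other motifs were not found. A match describes the letters of the window and shows no binding, and an absent match shows nothing about the factor. The windows are 5′ to 3′, at chr19:60874539-60874788 (minus strand), chr9:108338830-108339079 (plus strand) and chr15:77928995-77929244 (minus strand), with the match in capitals.
Prdx3: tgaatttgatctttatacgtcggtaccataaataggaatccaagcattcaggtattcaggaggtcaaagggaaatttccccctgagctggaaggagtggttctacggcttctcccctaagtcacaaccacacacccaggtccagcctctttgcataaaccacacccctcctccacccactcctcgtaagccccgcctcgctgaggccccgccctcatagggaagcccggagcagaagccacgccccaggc
Gpx1: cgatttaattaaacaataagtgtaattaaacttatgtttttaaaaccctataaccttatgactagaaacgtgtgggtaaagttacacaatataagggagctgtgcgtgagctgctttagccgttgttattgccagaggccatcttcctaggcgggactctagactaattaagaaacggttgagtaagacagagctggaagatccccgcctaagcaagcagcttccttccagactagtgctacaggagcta
Txn2: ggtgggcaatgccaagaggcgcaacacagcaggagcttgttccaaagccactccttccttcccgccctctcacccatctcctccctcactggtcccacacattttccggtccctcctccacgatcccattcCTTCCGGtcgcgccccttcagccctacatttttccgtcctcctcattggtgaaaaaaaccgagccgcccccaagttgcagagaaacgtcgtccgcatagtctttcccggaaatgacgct

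In the left ventricle, 3 of the 9 measured members passed the test between genotypes: the peroxide-removing enzymes Prdx3 and Gpx1 were lower in KO and the glutathione reductase Gsr was higher. The background was 30.9% of all genes, 12.3% lower and 18.6% higher, so 3 of 9 is a share near it. All 9 members lay above the median of all values, however. With dim genes left out, 3 of the 9 were again called, against 46.8% of 11769 genes. Groups did not overlap for 5 of the 9, against 44.4% of all genes. The median difference of the 9 members was -0.12, against -0.01 over all genes. Differences ran from -0.45 for Prdx3 to 0.36 for Gsr, all smaller than 2-fold. Repeated quantile normalization and median centring changed the share of higher calls among all called genes from 60.1% to 50.3% and 77.9%.

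Prdx3, the peroxiredoxin of the mitochondrial matrix, had a single probe set (1416292_at). It read 11.09, 11.19 and 11.15 in WT left ventricles and 10.64, 10.72 and 10.73 in KO left ventricles. WT right ventricles gave 11.16, 11.08 and 11.36, and KO right ventricles 11.03, 11.05 and 11.23. The 3 KO left ventricles lay below all 9 other arrays, while the right ventricles of the genotypes overlapped. The genotype difference was -0.45 in the left (11.14 ± 0.05 in WT against 10.70 ± 0.05 in KO, SD, n = 3 each, SE 0.09, limma adjusted p = 0.00291). The right difference was -0.10 (adjusted p = 0.536). The test of the difference between those effects gave 0.35 (SE 0.13, limma adjusted p = 0.314), so the left and right ventricles were not shown to differ. That value passed without WT_RV replicate 3 (0.43, adjusted p = 0.0482) and with array weights (0.39, adjusted p = 0.0496). In those settings 1309 and 1364 of all genes were called for the interaction, against 4 in the main fit.

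Gpx1, which reduces hydrogen peroxide with glutathione in the cytosol and in mitochondria, also had 1 probe set (1460671_at). Its values were 13.17, 13.24 and 13.21 in WT and 12.97, 12.85 and 12.97 in KO left ventricles, without overlap. On the right side WT gave 13.04, 13.03 and 13.31 and KO gave 12.98, 12.93 and 13.09, with overlap. The left difference was -0.28 (SE 0.09, limma adjusted p = 0.0355) and the right -0.13 (adjusted p = 0.406). With any 1 of the 6 left arrays removed Gpx1 was no longer called (differences of -0.30 to -0.24, adjusted p 0.0601 to 0.127), and the same held with median centring of arrays (-0.18, adjusted p = 0.195).

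Gsr, which returns oxidised glutathione to its reduced form at the cost of NADPH, was the member that rose. Its brightest probe set (1421817_at) read 8.88, 8.70 and 8.82 in WT left ventricles and 9.07, 9.10 and 9.30 in KO left ventricles. For WT right ventricles the values were 9.10, 8.86 and 9.01, and for KO they were 8.96, 9.11 and 9.13. KO lay above WT on all left arrays, and the right ventricles overlapped. The difference was 0.36 in the left (SE 0.10, limma adjusted p = 0.0135). On the right side it was 0.08 (adjusted p = 0.651). The other set of Gsr (1421816_at) differed by 0.19 in the left ventricle without passing (adjusted p = 0.171), although its groups did not overlap there. The call of Gsr was lost without WT_LV replicate 2 (0.31, adjusted p = 0.0568), without KO_LV replicate 3 (0.28, adjusted p = 0.0663) and with repeated quantile normalization (0.25, adjusted p = 0.0553).

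**Figure D1:**
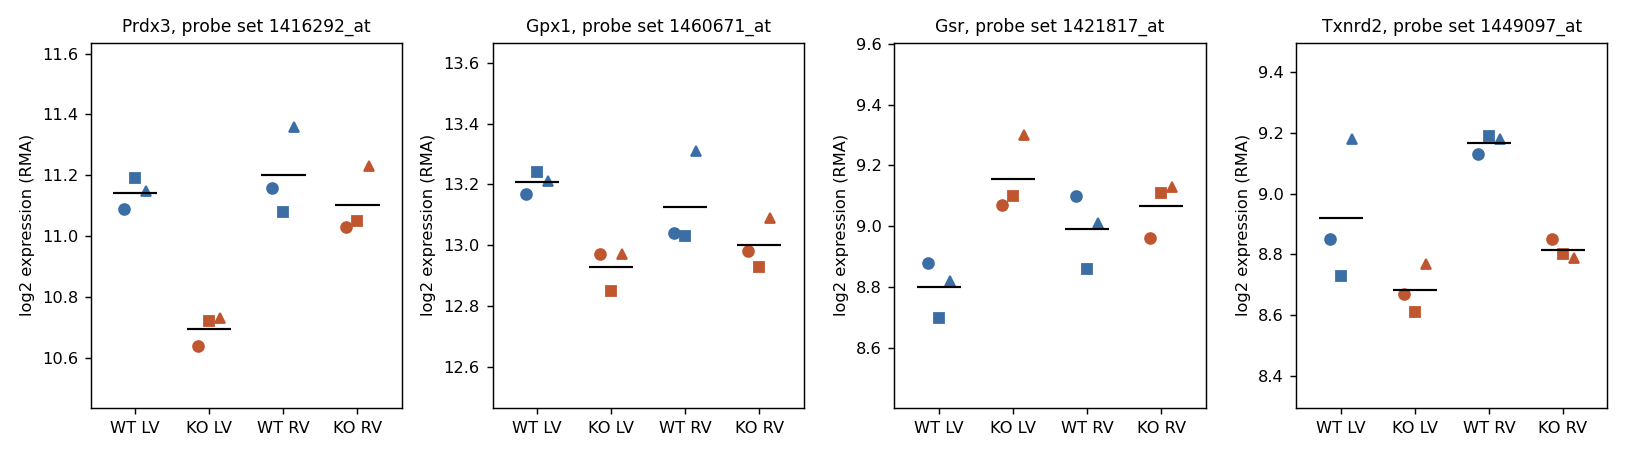
Log2 expression (y axis) of Prdx3, Gpx1, Gsr and Txnrd2 on each array, by group (x axis), WT in blue and KO in orange; circle, square and triangle are replicates 1, 2 and 3, bars are group means, and every panel spans the same range around its own mean. The 3 KO left ventricles of Prdx3 lie between 10.64 and 10.73, below every other array, and the WT right ventricles of Txnrd2 between 9.13 and 9.19, above the KO right ventricles at 8.79 to 8.85.

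The poly-A control transcripts that are added to the RNA before labelling differed between the left ventricular groups, at means of 8.89 to 8.94 in WT and 8.05 to 8.47 in KO, so that in the left ventricle their level and the genotype cannot be told apart. Used as a covariate, that level was fitted from its spread within the 4 groups. This spread was widest in the right ventricles (8.05, 8.13 and 8.96 in WT, 7.35, 7.9 and 8.37 in KO). The left differences were then -0.30 for Prdx3 (adjusted p = 0.0533), -0.15 for Gpx1 (adjusted p = 0.345) and 0.44 for Gsr (adjusted p = 0.0272), and 1 member was called. In the right ventricle the 5 arrays with low controls held both genotypes, and Prdx3 differed there by -0.02, Gpx1 by -0.03 and Gsr by 0.09, none of them called.

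Markers of the cell types in the tissue were summed for each array. Over all genes 18.6% were called higher and 12.3% lower in the left ventricle, and 8.19% either way in the right ventricle. All 11 cardiomyocyte markers were measured and above the median of all values, with a log2 summed level of 17.58 to 17.62 in WT and 17.72 to 17.77 in KO left ventricles, and 3 were called higher. For 9 of 13 erythroid markers that were measured the range was 14.61 to 14.76 in WT and 14.89 to 15.15 in KO left ventricles. That sum is mostly the signal of the embryonic globin Hbb-y (difference 0.37), and the calls were split, with Hba-x and Hbb-y higher, Alas2 (-1.06) and Epor (-0.50) lower and a list median of -0.38. In right ventricles the erythroid sum was 14.48 to 14.75 in WT and 14.79 to 15.02 in KO, with 0 called higher, 3 lower and a median of -0.32. For 10 of 10 macrophage and leukocyte markers it was 10.82 to 10.95 and 11.83 to 12.01, with 8 called higher, and for 8 of 8 endothelial and endocardial markers 11.89 to 12.04 and 12.54 to 12.70, with 6 called higher. The summed level of 7 of 9 fetal liver markers ran from 10.11 to 12.23 in WT and from 8.60 to 9.92 in KO left ventricles, with 2 called lower. For 8 of 8 fibroblast and valve mesenchyme markers the ranges were 14.67 to 15.08 and 14.97 to 15.16, which overlap, with 2 called higher and 2 lower, and for 7 of 7 epicardial markers 11.32 to 11.79 and 11.72 to 11.98, which overlap, with 2 called higher. Right ventricles ran from 10.70 to 10.86 in WT and 11.11 to 11.36 in KO for the macrophage markers, with 4 called higher, and from 11.96 to 12.44 and 12.53 to 12.61 for the endothelial markers, with 2 called higher. With the poly-A control covariate 1 cardiomyocyte and 0 erythroid markers were called in the left ventricle. The left calls stayed at 8 for macrophage, 6 for endothelial, 2 for epicardial and 2 for fetal liver markers. Of the fibroblast markers 3 were then higher and 1 lower. In right ventricles 3 macrophage and 0 endothelial markers were called with that covariate, and likewise without WT_RV replicate 3. The part of these cells in the differences of the members was not tested, and in pooled tissue fewer cells of a type and less RNA per cell cannot be told apart.

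Between the right ventricles 0 of the 9 measured members passed, against 8.19% called over all genes by limma. With dim genes left out 1 member, Txnrd2, passed, against 12% of 11769 genes. Groups did not overlap for 2 of the 9, against 29.4% of all genes. The same 2, Txnrd2 and Txn2, were under an unadjusted p of 0.05 in limma. Of all probe sets, dim ones included, 21.4% were, and the share of genes was not computed. Differences ran from -0.35 for Txnrd2 to 0.08 for Gsr, and 7 of the 9 were below 0, with a median of -0.10 against -0.04 over all genes.

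Txnrd2, the selenoprotein that recharges mitochondrial thioredoxin, came nearest. Its brightest set (1449097_at) read 9.13, 9.19 and 9.18 in WT against 8.85, 8.80 and 8.79 in KO right ventricles. For WT left ventricles the values were 8.85, 8.73 and 9.18, and for KO left ventricles 8.67, 8.61 and 8.77. The right ventricles did not overlap, and in the left WT replicate 3 stood above the others while replicate 2 lay among the KO arrays. The right difference was -0.35 (9.17 ± 0.03 against 8.81 ± 0.03, SD, n = 3 each, SE 0.10, limma adjusted p = 0.0535), and with the replicate number as a block, under which same-numbered right ventricles were paired, it was called (-0.35, adjusted p = 0.0378). The left difference was -0.24 (adjusted p = 0.103) and rested on single WT arrays: it was called without WT_LV replicate 2 (-0.33, adjusted p = 0.039) and was -0.11 without WT_LV replicate 3 (adjusted p = 0.403). On the arrays with low poly-A controls alone the right difference was again -0.35 (adjusted p = 0.036). Its 3 other sets were all below 0 in both ventricles. The left difference of 1429972_s_at was -0.44 (adjusted p = 0.00893, over all probe sets), which was not called with the poly-A control covariate (-0.35, adjusted p = 0.101). On 1429972_s_at every KO array lay below every WT array, at 7.44 or less against 7.46 or more. The right difference of 1451936_a_at was -0.44 (adjusted p = 0.0826, and 0.0428 with the replicate block). The set 1429971_at differed by -0.08 and -0.12 (adjusted p = 0.752 and 0.678).

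Txn2, the thioredoxin of the matrix, had 3 sets, all with differences below 0, and 1 of them passed in the left ventricle. The brightest (1455640_a_at) read 9.73, 9.75 and 10.24 in WT against 9.73, 9.63 and 9.77 in KO left ventricles. Among right ventricles WT gave 10.02, 9.93 and 10.10 and KO gave 9.77, 9.76 and 9.71. The groups overlapped in the left, where WT replicate 3 stood apart, and not in the right ventricle. Its left difference was -0.20 (SE 0.12, limma adjusted p = 0.235) and -0.03 without WT_LV replicate 3 (adjusted p = 0.842), and its right difference was -0.27 (adjusted p = 0.172). The set 1421557_x_at followed it closely (Pearson r of 0.96 over the 12 arrays), with -0.19 and -0.29. The set 1452782_a_at differed by -0.36 in the left (adjusted p = 0.0386) and -0.32 in the right ventricle (adjusted p = 0.127), and the left value was not called when any of the 6 arrays but WT_LV replicate 1 was removed (differences of -0.40 to -0.23), nor with the poly-A control covariate (-0.28, adjusted p = 0.231). On this set too every KO array lay below every WT array, at 9.46 or less against 9.5 or more. The share of all probe sets with such a separation was not computed.

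Nnt, the proton-driven source of mitochondrial NADPH, gave different answers on its bright probe sets. The brighter (1456573_x_at) read 12.23, 11.84 and 12.06 in WT against 12.19, 12.04 and 12.21 in KO left ventricles. The right ventricles gave 12.35, 12.25 and 11.79 for WT and 12.10, 12.09 and 12.17 for KO. The KO arrays lay inside the range of the WT arrays in both ventricles. Its differences were 0.10 in the left (SE 0.14, 95% interval -0.19 to 0.39, limma adjusted p = 0.604), and on the right side -0.01 (95% interval -0.30 to 0.28, adjusted p = 0.972).

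The second bright set of Nnt (1416105_at) read 11.94, 11.80 and 12.04 in WT against 11.35, 11.47 and 11.68 in KO left ventricles. For WT right ventricles the values were 12.17, 12.03 and 11.82, and for KO they were 11.45, 11.60 and 11.66. Every KO array lay below every WT array, a separation whose share over all probe sets was not computed. The differences were -0.43 in the left (SE 0.12, adjusted p = 0.0215 over all probe sets) and -0.44 in the right ventricle (SE 0.12, adjusted p = 0.0533), and right minus left the effect differed by -0.01 (95% interval -0.37 to 0.35). With the poly-A control covariate the differences were as large, -0.42 and -0.43, without a call (adjusted p = 0.113 and 0.15). The right difference was called without WT_RV replicate 3 (-0.53, adjusted p = 0.038) and on the arrays with low controls alone (-0.53, adjusted p = 0.045), and the left was not called without WT_LV replicate 1 (-0.42), WT_LV replicate 3 (-0.37), KO_LV replicate 1 (-0.35) or KO_LV replicate 2 (-0.41). The remaining set (1432608_at) lay below the median of all values, at 4.89 to 5.56, and differed by -0.20 and -0.03.

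Within an array, the first Nnt set exceeded the second by 0.02 to 0.29 in WT and 0.53 to 0.84 in KO left ventricles, and by -0.03 to 0.22 and 0.49 to 0.65 in right ventricles. The gap was thus 0.53 wider in KO in the left and 0.43 wider in the right ventricle, with no overlap in either. Over the 12 arrays the 2 sets had a Pearson r of 0.20. A gap without overlap in either ventricle was not particular to Nnt. For the Glrx2 sets 1422998_a_at and 1437680_x_at it was 0.23 wider in KO in the left and 0.16 in the right ventricle. The share of all set pairs with such a gap was not computed. The suffix _x_at marks sets with probes that can also bind other transcripts, and which part of Nnt each set reads was not analysed here.

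**Figure D2:**
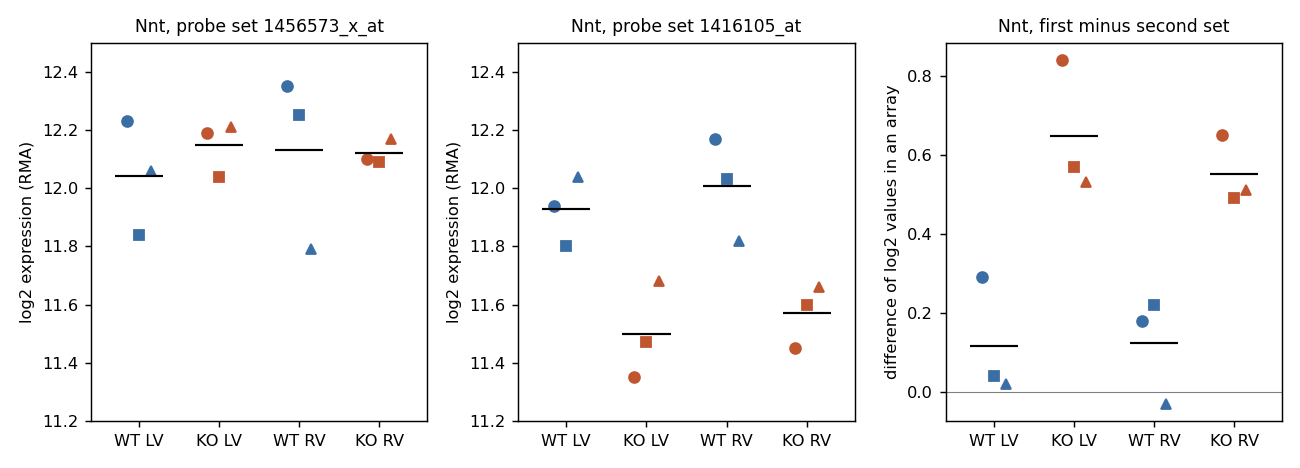
Log2 expression (y axis, left and middle panels) of the bright Nnt probe sets on each array by group (x axis), and the difference between the sets within each array (right panel); WT in blue, KO in orange, circle, square and triangle for replicates 1, 2 and 3, bars for group means. The first set overlaps between genotypes, the second lies at 11.35 to 11.68 on all KO arrays and 11.80 to 12.17 on all WT arrays, and the gap is 0.49 or more on all KO arrays and 0.29 or less on all WT arrays.

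The genes whose levels followed Nnt most closely over the 12 arrays were also different for the 2 sets, among 11768 genes above the median of all values. For the first set they were Map9 (Pearson r of 0.907), Cpne2 (0.845), Btnl9 (0.835), Sypl (0.834) and Mcm8 (0.833). For the second they were Sparcl1 (0.952), Fggy (0.943), Fsd2 (0.938), Vps33a (0.933) and Pi4k2a (0.928), whose genotype differences in the left and right ventricle were -0.48 and -0.70, -0.53 and -0.51, -0.36 and -0.48, -0.54 and -0.59, and -0.17 and -0.18. Among the members the second set was closest to Txnrd2 (r of 0.79), Txn2 (0.68) and Prdx3 (0.61), and the first to Idh2 (0.43). For the genes near the first set the genotype differences were 0.04 to 0.28 in the left and -0.14 to 0.17 in the right ventricle. The genes near the second set were picked for following a set that separates the genotypes. Their lower levels in KO thus come with that choice. These are descriptions over arrays that share 4 groups.

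Idh2, the other matrix source of NADPH among the members, varied little on its bright set (1450048_a_at). It read 13.44, 13.50 and 13.50 in WT against 13.59, 13.53 and 13.51 in KO left ventricles. On the right side WT gave 13.59, 13.62 and 13.43 and KO gave 13.48, 13.47 and 13.39. The 12 arrays spanned 13.39 to 13.62. The left groups did not overlap, by a narrow margin, and the right groups did. The differences were 0.06 (95% interval -0.11 to 0.23, adjusted p = 0.589) and -0.10 (95% interval -0.27 to 0.07, adjusted p = 0.45). A much dimmer set (1453601_at) ran from 6.39 to 7.90 and differed by -0.61 in the left ventricle without a call (adjusted p = 0.0974). That value was called without WT_LV replicate 3 (-0.95, adjusted p = 0.00504), and it was -0.37 without WT_LV replicate 2.

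Sod2, the superoxide dismutase of the matrix, differed between probe sets as Nnt did. Its brightest set (1417193_at) read 12.04, 12.17 and 12.38 in WT against 12.27, 12.27 and 12.33 in KO left ventricles. The right ventricles gave 12.45, 12.58 and 12.51 for WT and 12.56, 12.52 and 12.46 for KO. The genotypes overlapped in both ventricles, and all 6 right ventricles lay above all 6 left ventricles. The genotype differences were 0.09 (95% interval -0.10 to 0.29, adjusted p = 0.481) and 0.00 (95% interval -0.20 to 0.20, adjusted p = 1), and those of 1448610_a_at (r of 0.96 with the first over the 12 arrays) were 0.16 and -0.03. The set 1454976_at read 10.49, 9.90 and 10.16 in WT against 9.58, 9.60 and 9.66 in KO left ventricles. On the right side it gave 10.49, 9.97 and 10.19 for WT and 9.70, 9.70 and 9.85 for KO. Again it had every KO array below every WT array, a separation whose share over all probe sets was not computed. It differed by -0.57 in the left (SE 0.15, adjusted p = 0.0175 over all probe sets) and -0.47 in the right ventricle (adjusted p = 0.098), and its left call was lost without WT_LV replicate 1 (-0.42, adjusted p = 0.0669) and with the poly-A control covariate (-0.54, adjusted p = 0.108). Its r with the brightest set was -0.16. The dim set 1417194_at differed by -0.10 and -0.28 without a call.

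**Figure D3:**
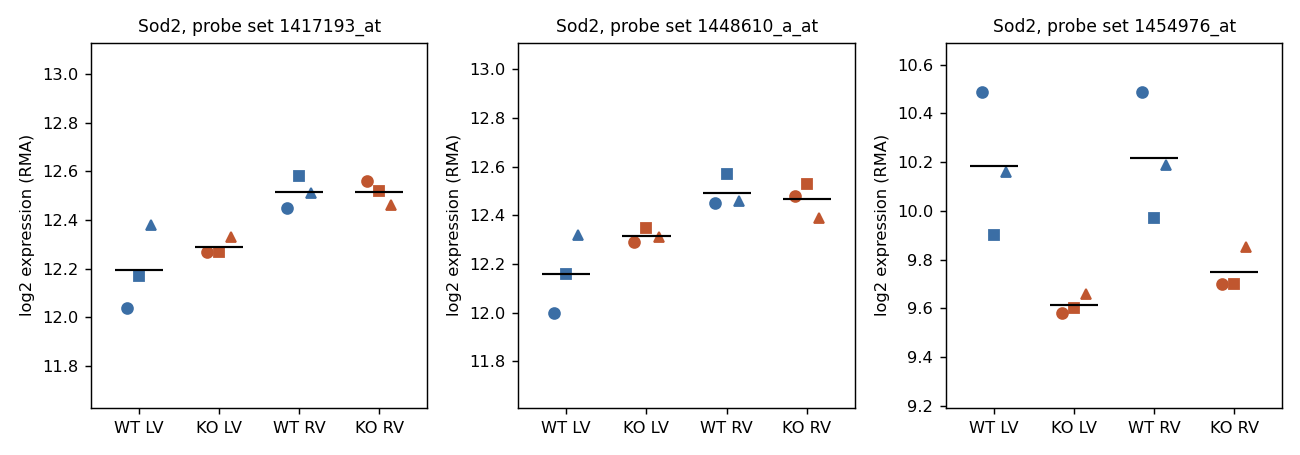
Log2 expression (y axis) of 3 Sod2 probe sets on each array by group (x axis); WT in blue, KO in orange, circle, square and triangle for replicates 1, 2 and 3, bars for group means, each panel spanning the same range around its own mean. The first 2 sets are higher in right than in left ventricles and overlap between genotypes, and the last lies at 9.58 to 9.85 on all KO arrays and 9.90 to 10.49 on all WT arrays.

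Glrx2, the glutaredoxin that resolves mixed disulfides of mitochondrial proteins, did not pass on its brightest set (1422998_a_at). It read 10.31, 10.28 and 10.38 in WT against 10.25, 10.21 and 10.15 in KO left ventricles, with a difference of -0.12 (SE 0.08, adjusted p = 0.305). Among right ventricles WT gave 10.33, 10.25 and 10.50 and KO 10.26, 10.32 and 10.26, a difference of -0.08 (adjusted p = 0.577). KO lay below WT on all left arrays and the right ventricles overlapped. The 2 other sets, 1437679_a_at and 1437680_x_at, each differed by -0.35 in the left ventricle (adjusted p = 0.0498 and 0.0306 over all probe sets), and neither was called when any of the 6 arrays but WT_LV replicate 1 was removed. They were -0.19 and -0.22 with the poly-A control covariate (adjusted p = 0.389 and 0.262). In the right ventricle these sets differed by -0.23 and -0.24 (adjusted p = 0.278 and 0.216).

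With every probe set tested on its own, 9 of the 23 member sets were called in the left ventricle, 8 lower and 1 higher, where 10.5% of all sets were called lower and 12.8% higher. By their means, all of the 23 but 1432608_at of Nnt lay above the median of all values. The shares over all sets given here include dim sets, and shares among bright sets alone were not computed. The 8 lower sets belonged to 7 genes, Nnt, Sod2, Prdx3, Txn2, Txnrd2, Gpx1 and Glrx2, and sets that share a gene were not counted as independent of each other. Of the 8 lower sets 0 passed with the poly-A control covariate. For Prdx3 and Gpx1 that fit was the one over genes, with limma adjusted p values of 0.0533 and 0.345. For the others it was over all probe sets, with adjusted p values from 0.101 (Txnrd2) to 0.389 (Glrx2). Of the 23 sets 17 were below 0 in the left and 20 in the right ventricle, against 55.5% and 58.8% of all sets. In the right ventricle 0 of 23 were called, against 4.89% of all sets by limma, and 10 had an unadjusted p under 0.05, against 21.4% of all sets.

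**Figure D4:**
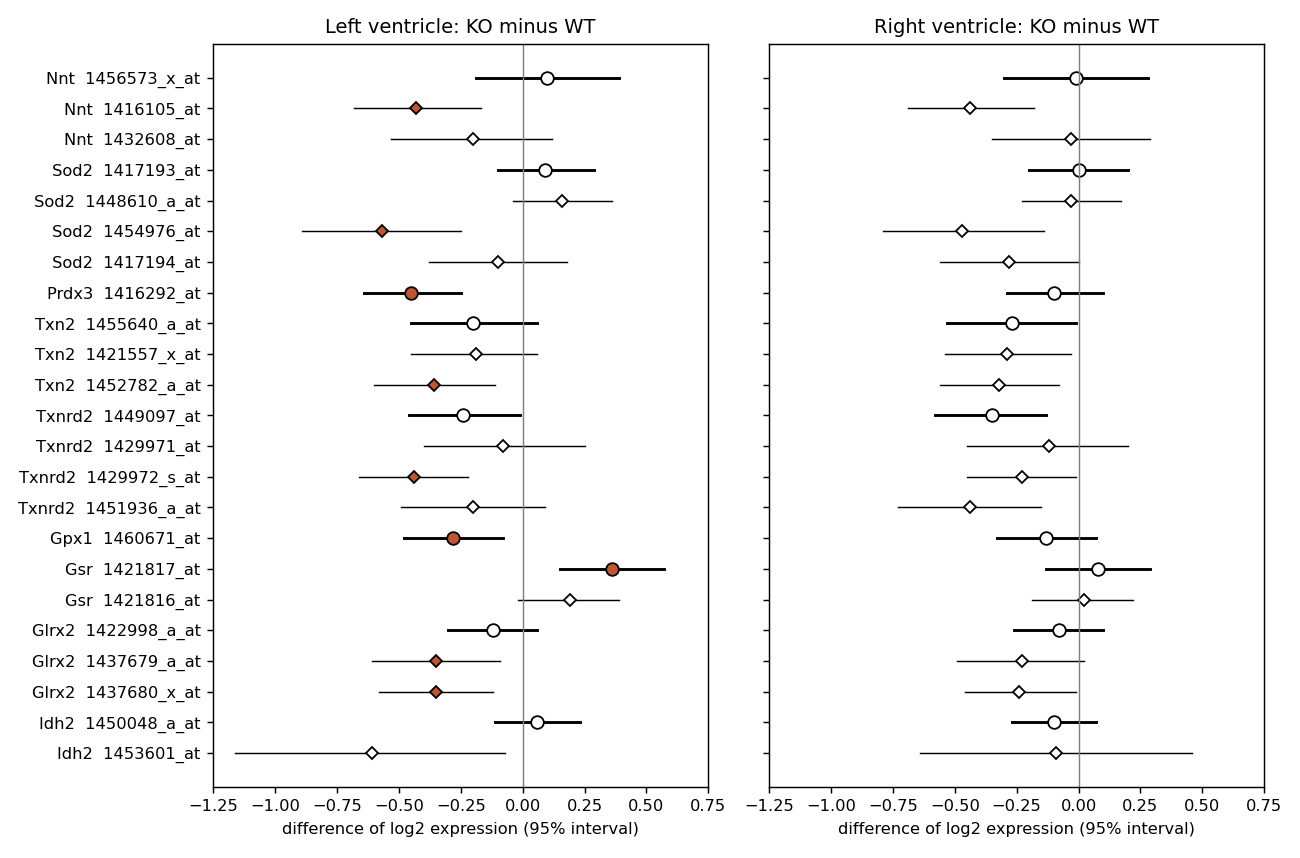
KO minus WT difference of log2 expression (x axis) of the 23 member probe sets (y axis) in the left and right ventricle, with the 95% interval from limma; large circles are the sets used for each gene, diamonds the other sets, and filled symbols passed at an adjusted p under 0.05. In the left ventricle 3 circles are filled, Prdx3 and Gpx1 below 0 and Gsr above, with 6 filled diamonds below 0, and in the right ventricle no symbol is filled.

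No member was called between the ventricles of 1 genotype. Right minus left, 0 of 9 members passed in WT (0.984% called over all genes by limma) and 0 of 9 in KO (1.14%), with 2 members in each genotype under an unadjusted p of 0.05. Groups did not overlap for 1 member in WT (15.7% of all genes) and for 5 in KO (19.7%). The right minus left difference of Prdx3 was 0.41 in KO (SE 0.09, limma adjusted p = 0.0528), with no overlap of groups, and 0.06 in WT (adjusted p = 0.787). With the replicate block, under which same-numbered KO ventricles were paired, the KO difference of Prdx3 was called (adjusted p = 0.0325). For Sod2 it was 0.32 in WT (adjusted p = 0.12) and 0.22 in KO (adjusted p = 0.401), with no overlap in either genotype. Without WT_LV replicate 3 the WT differences of Sod2 (0.41, adjusted p = 0.0358) and Txnrd2 (0.38, adjusted p = 0.0466) were called. The interaction of genotype and ventricle passed for 0 of 9 members, where limma called 0.022% of genes, and Prdx3 had the single unadjusted p under 0.05. For these comparisons the share of all genes under that unadjusted p was not computed, so these counts have no background beside them.

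Antioxidant genes outside the members changed in both directions in the left ventricle. The background for the left counts of this and the following lists is 18.6% of all genes called higher and 12.3% lower. With dim genes left out 46.8% were called either way. For the right counts the background is 8.19% of all genes called either way. Of 11 measured genes of superoxide and peroxide removal 1 rose and 6 fell. The riser was Cat, the catalase of peroxisomes, at 0.59, and the largest falls were those of Gpx4, the peroxidase of membrane lipids (-0.55), Gpx8, of the endoplasmic reticulum (-0.44), and Prdx2, a cytosolic peroxiredoxin (-0.44). The list's median difference was -0.26, against -0.01 over all genes. On the right side 2 of the 11 fell, Gpx3, a secreted peroxidase (-0.44), and Prdx2 (-0.32). With the poly-A control covariate 1 rose and 2 fell in the left and 1 fell in the right ventricle. Without WT_RV replicate 3 the right count was 1.

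Of 11 genes of the thioredoxin and glutaredoxin system 2 rose in the left ventricle, the cytosolic reductase Txnrd1 (0.39) and Txnrd3 (0.38), and 2 fell, Glrx3 (-0.38) and Glrx5, a mitochondrial carrier of iron-sulfur clusters (-0.30). On the right side 0 of the 11 passed. Of 13 genes of glutathione synthesis and transfer 1 rose and 3 fell in the left ventricle. These were Gsto1 at 0.68, Ggct at -0.76, Gsta4, which detoxifies lipid peroxidation products, at -0.65 and the glutathione synthetase Gss at -0.45. Gsto1 (0.89) and Gsta4 (-0.48) passed in the right ventricle too. With the poly-A control covariate 0 genes of the first list passed in the left ventricle, and 1 rose and 2 fell in the second.

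Of 13 measured genes linked to NADPH supply, other than Nnt and Idh2, 5 rose in the left ventricle and 0 fell. The largest were Aldh1l2, a folate enzyme of mitochondria (0.51), Me1, the cytosolic malic enzyme (0.48), and Mthfd2l (0.39), and Mthfd2l rose in the right ventricle as well (0.30). Not all genes of the list make NADPH themselves, among them Nadk, Nadk2 and the riser Mthfd1l (0.37). The list's median was 0.16 in the left ventricle. With the poly-A control covariate 2 of the 13 rose in the left and 0 in the right ventricle, and without WT_RV replicate 3 the right count was 0 as well.

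Of 13 genes of the Nrf2 pathway 4 rose and 0 fell in the left ventricle, where 30.9% of all genes were called either way. The risers were Nfe2l2, which encodes the factor Nrf2 (0.46), its inhibitor Keap1 (0.34), the competing repressor Bach1 (0.39) and the target Txnrd1, named above. The targets Nqo1, Hmox1, Gclc, Gclm and Srxn1 did not pass. The median of the list was 0.05, and in the right ventricle 0 passed. With the poly-A control covariate 2 rose in the left ventricle.

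Genes of general mitochondrial content went both ways as well. Of 19 measured 2 rose in the left ventricle, citrate synthase (Cs, 0.38) and the outer membrane channel Vdac1 (0.36), and 5 fell, among them the chaperonin Hspe1 (-0.53), the protease Clpp (-0.45) and Tfam, the packaging protein of mitochondrial DNA (-0.39). The list's median was 0.02 in the left and 0.00 in the right ventricle, where 0 passed. Of 9 regulators of mitochondrial biogenesis 2 rose in the left ventricle, the nuclear receptor Esrrg (0.99) and Gabpa (0.38), a subunit of GA-binding protein, and 3 fell, Esrra (-0.57), Tfam and Tfb2m, a transcription factor of the organelle (-0.32). Esrrg rose in the right ventricle too (0.55). With the poly-A control covariate 0 rose and 2 fell in the content list and 1 rose and 2 fell among the regulators in the left ventricle. Without WT_RV replicate 3 the left counts of the content list were 4 and 6, and in the right ventricle 0 regulators rose and 1 fell.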

How the data were processed

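From each pool 100 ng of RNA was labelled and put on an Affymetrix array, per the labels' protocols. The authors deposited log2 values from RMA (per the submitters' processing notes) for 45101 probe sets and 12 arrays. Sources used here give neither a genome build nor a software version. RMA as usually run normalizes between arrays, which can mask a change common to most genes, and array medians of the deposited values ran from 5.57 to 5.74. No array pair was identical (0 pairs, correlations of 0.983 to 0.998 across genes), and 0 columns were left unused.

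The platform annotation named 1 gene for 34958 probe sets, several for 932 and no gene for 9211. By gene ID, 34754 were found in RefSeq (GRCm38.p6), with 0 symbols changed. Taking the set with the highest mean per gene left 18194 genes, and these were fitted in limma 3.58.1 (R 4.3.3) with a mean per group and Benjamini-Hochberg adjustment over all genes. Other sets of the members come from the same model over all 45101 sets. Simulated arrays with known changes of 1 in 100 of 18194 genes gave 96 calls in KO minus WT in the left ventricle, and changes of 0.5 in another 100 gave 58. Of the unchanged genes 8 were called. Far fewer genes were changed there than the 5617 called in the data, so these shares need not hold for the data.

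The members, gene lists, motifs and settings were chosen with earlier results of these data known. Named were all members and their sets, up to 3 called genes per direction of each list, and the 5 genes most like each bright Nnt set. The lists of cardiomyocyte, erythroid, endothelial, leukocyte, fibroblast, epicardial and fetal liver markers served to describe the tissue.

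Replicate numbers are shared by the groups. Deviations from group means of same-numbered arrays correlated at 0.11, 0.26 and 0.31 between WT and KO right ventricles. Between KO left and right ventricles they correlated at 0.21, 0.29 and 0.26. Between WT and KO left ventricles the values were 0.01, 0.14 and 0.42, and between WT ventricles 0.23, -0.01 and 0.15. The labels do not state a pairing, and the main fit used none. The replicate block, tried as a setting, covered all 12 arrays, with a consensus correlation of 0.086 as a random effect. Promoter windows are RefSeq's, and figures were drawn with matplotlib 3.10.9 in Python 3.11.15. Other settings tried were the mean of a gene's sets, no dim genes, further normalization, array weights, trend and robust variances, the replicate block, the compared groups alone, a threshold of 0.01, a poly-A control covariate and leaving out each array.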

Additional observations from a re-analysis of the deposited data

How the results depend on the processing

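No call of a member or of its probe sets turned to the opposite direction under any of the settings tried. The 3 members called in the left ventricle became 1 with a threshold of 0.01 (Prdx3) and with the poly-A control covariate (Gsr), 2 with median centring and 4 with the mean of a gene's probe sets, and ran from 1 to 2 when an array of these groups was left out, with 1 without KO_LV replicate 3. With repeated quantile normalization 3 members were called lower, Prdx3, Gpx1 and Txnrd2, and 0 higher. In the right ventricle the 0 called members became 1, Txnrd2, with dim genes left out, with repeated quantile normalization, with trend and robust variances, with array weights, with the replicate block as a fixed term or a random effect, with the compared groups alone and on the arrays with low poly-A controls, and stayed 0 when any array was left out. For the interaction the 0 became 1, Prdx3, with array weights, and 0 to 1 when an array was left out, with 1 without WT_RV replicate 3. Right minus left in WT, the 0 became 2 with array weights and 0 to 2 when an array was left out. Right minus left in KO, the 0 became 1, Prdx3, with the mean of the probe sets, dim genes left out, repeated quantile normalization, trend and robust variances, array weights, the replicate block as a fixed term or a random effect, the compared groups alone and the poly-A control covariate, and stayed 0 when any array was left out. Besides these, the replicate block added calls of the other probe sets 1451936_a_at of Txnrd2 (right ventricle) and 1453601_at of Idh2 (left ventricle, -0.61), and changed no further call. Array weights called 2212 genes over the whole table for right minus left in WT and 1364 for the interaction, against 179 and 4 without them. Without WT_RV replicate 3 these counts were 1734 and 1309. The number of arrays, 3 per group, limits the precision of every value. The cause of these changes was not tested. Values of other probe sets of the members and of the lists with the poly-A covariate, and of other probe sets without single arrays, were added after seeing the data.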
